A study of Homo sapiens with 6 samples.

Results

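The genes described here are 39 genes of the unfolded protein response of the endoplasmic reticulum (ER), compared between wild-type (WT) and THUMPD1 knockout (THUMPD1 KO) HEK-293T cells. They were taken by symbol from a list of ER stress sensors, chaperones, folding enzymes and degradation factors, not by a cut on measured values. The list was, however, chosen with earlier results of these data known. All 39 were found among the 58870 genes of the count table, and all 39 were among the 15088 genes with enough reads to be tested.

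The ER is the compartment in which secreted and membrane proteins are folded, N-glycosylated and joined by disulfide bonds. When unfolded proteins build up there, the sensors IRE1 (encoded by ERN1), ATF6 and PERK (encoded by EIF2AK3) are set in motion. IRE1 splices the XBP1 mRNA so that it encodes an active transcription factor, ATF6 is cut free from its membrane anchor and enters the nucleus, and PERK phosphorylates the translation factor eIF2α, the same site that GCN2 phosphorylates when tRNA function is impaired. XBP1 and ATF6 raise transcription of chaperones, folding enzymes and components of ER-associated degradation (ERAD), the route by which misfolded proteins are drawn back into the cytosol and destroyed.

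HEK-293T is an immortalized line derived from human embryonic kidney. THUMPD1 is the RNA-binding adaptor with which the acetyltransferase NAT10 places N4-acetylcytidine in tRNA for Leu and Ser. The WT cells carry intact THUMPD1, and the THUMPD1 KO cells are a line grown from a sorted single cell after CRISPR-Cas9 cutting of the THUMPD1 coding sequence. Both were grown in DMEM with no stress-inducing agent, and 3 replicates of each genotype were sequenced as ribosomal RNA-depleted total RNA. Because the knockout is 1 clone, effects of losing THUMPD1 and other differences between this clone and the parental cells cannot be told apart. The labels do not say whether replicates came from separate cultures, so p values measure the spread between these libraries, which may be technical.

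Library totals lay between 32225646 and 44099898 expected counts, so 1 counts-per-million unit (CPM) stood for 32.2 to 44.1 read pairs. The 39 genes had at least 149 counts in every library. THUMPD1 itself was at 80.9 ± 3.65 CPM in WT (SD, n = 3) and at 11.0 ± 0.918 CPM in THUMPD1 KO (n = 3), a log2 fold change of −2.87 (SE 0.085, adjusted p = 3.167e-08 by limma-voom), so the libraries matched their labels. PAX2, LHX1, VIM, KRT8, KRT18, NEFM and NEFL, genes expressed in the HEK-293 line, were detected in all 6 libraries. Their levels were not all alike between genotypes. Mean NEFM was 35.3 CPM in WT and 5.33 CPM in THUMPD1 KO, and mean PAX2 was 2.32 and 3.77 CPM. The mature kidney markers UMOD, AQP2 and SLC34A1 had no counts, and SLC12A1 and SLC12A3 had no more than 2 counts in any library, so these markers of mature kidney cells were absent or nearly so although the labels give the tissue as kidney.

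XBP1 mRNA was lower by about the same factor in every THUMPD1 KO library, and so was mRNA of the ERAD gene DERL3. Most other members differed little between genotypes. The chaperones and folding enzymes CALR, HSP90B1, DNAJB11 and PDIA3, the sensor ATF6 and the ERAD genes DERL1, DERL2, EDEM3 and SELENOS rose by 11.5 to 19.0%. SDF2L1, CREB3L2, CRELD2 and PDIA4 fell. HSPA5, which encodes the chaperone BiP and is the usual readout of this response, was not called in either direction.

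A gene is called here when its adjusted p from limma-voom is under 0.05, with Benjamini-Hochberg adjustment over all 15088 genes. Of the 39 members 15 were called (38.5%), 9 higher and 6 lower in THUMPD1 KO, and 24 were not called. Over all genes tested the called share was 26.7%, with 13.7% higher and 13.0% lower. The median log2 fold change was 0.04 over the 39 members and 0.02 over all genes tested. With TMM library sizes in place of quantile normalization 13 members were called, 6 higher and 7 lower. With library sizes alone the 15 calls again split into 9 higher and 6 lower. Shares over all genes are not given here for the TMM and library-size fits.

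CPM values of the genotypes did not overlap for 19 of the 39 members (48.7%), with all THUMPD1 KO libraries above WT for 11 and below WT for 8. The same held for 42.2% of all genes tested. Replicate numbers are shared between genotypes, and all 3 numbered pairs moved up for 14 members, down for 13 and in mixed directions for 12. Over all 15088 genes tested the pairs moved up for 4971, down for 4280 and in mixed directions for 5837. With the replicate number as a block 18 of the 39 members were called, 9 higher and 9 lower. Over all genes tested the block fit called 35.1%, with 18.4% higher and 16.7% lower. The 3 members called lower with the block but not without it were ERO1A, HERPUD1 and EDEM1. Some fits without the block called them too: EDEM1 with TMM, edgeR, DESeq2, the GC content and length trend removed or WT replicate 2 left out, ERO1A with that trend removed and HERPUD1 without WT replicate 2.

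**Figure D1:**
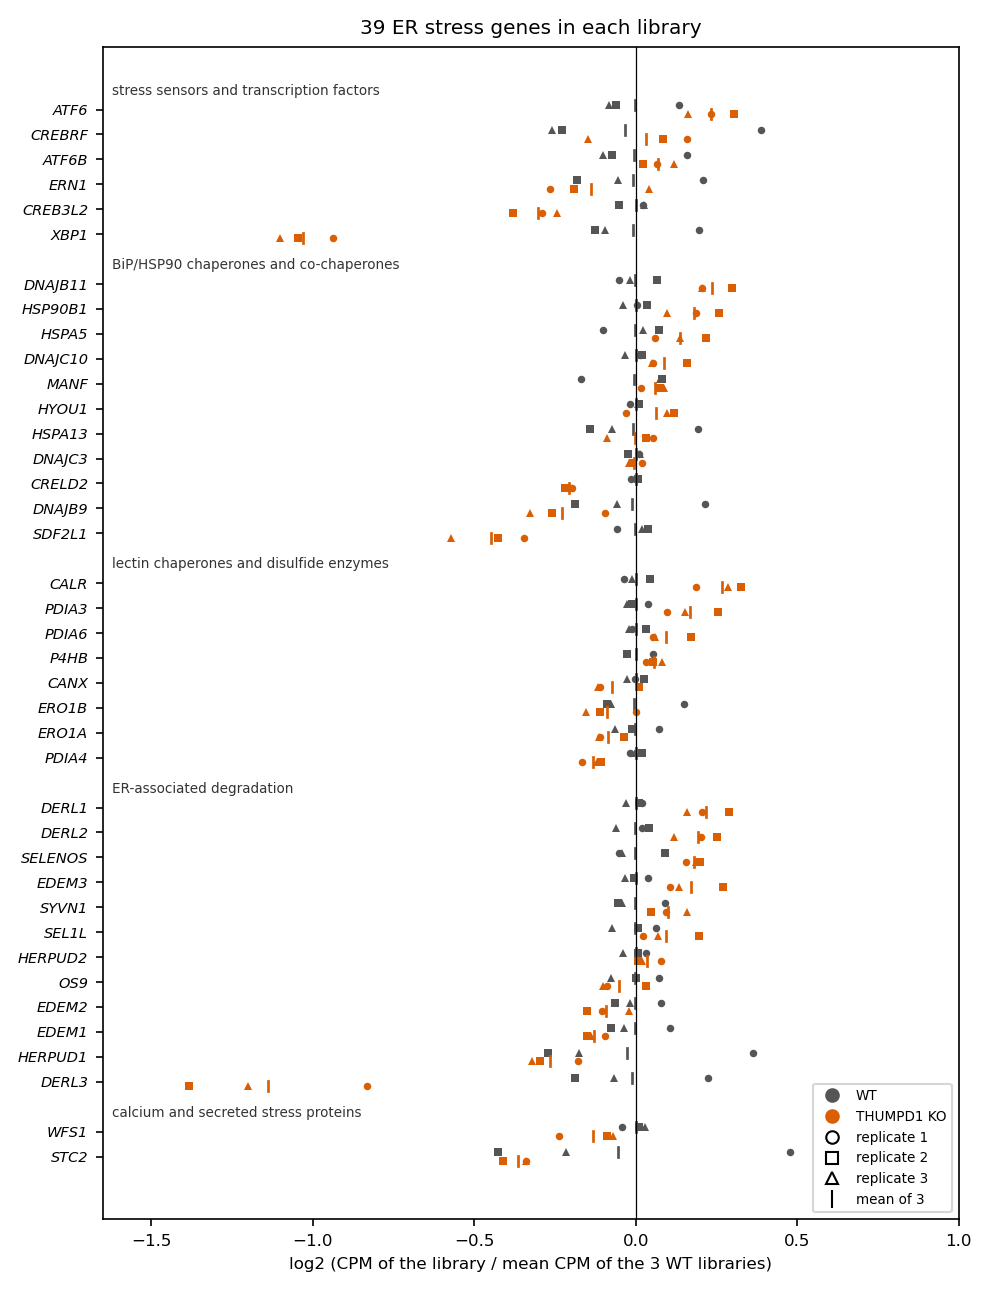
CPM of each of the 39 genes in each library, relative to the mean of the 3 WT libraries and on a log2 axis, grouped by role. Grey marks are WT, orange marks are THUMPD1 KO, marker shapes give the replicate number and vertical ticks are means of 3. XBP1 and DERL3 stand far to the left in all 3 THUMPD1 KO libraries, and WT replicate 1 lies to the right for STC2, HERPUD1 and CREBRF.

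**Figure D2:**
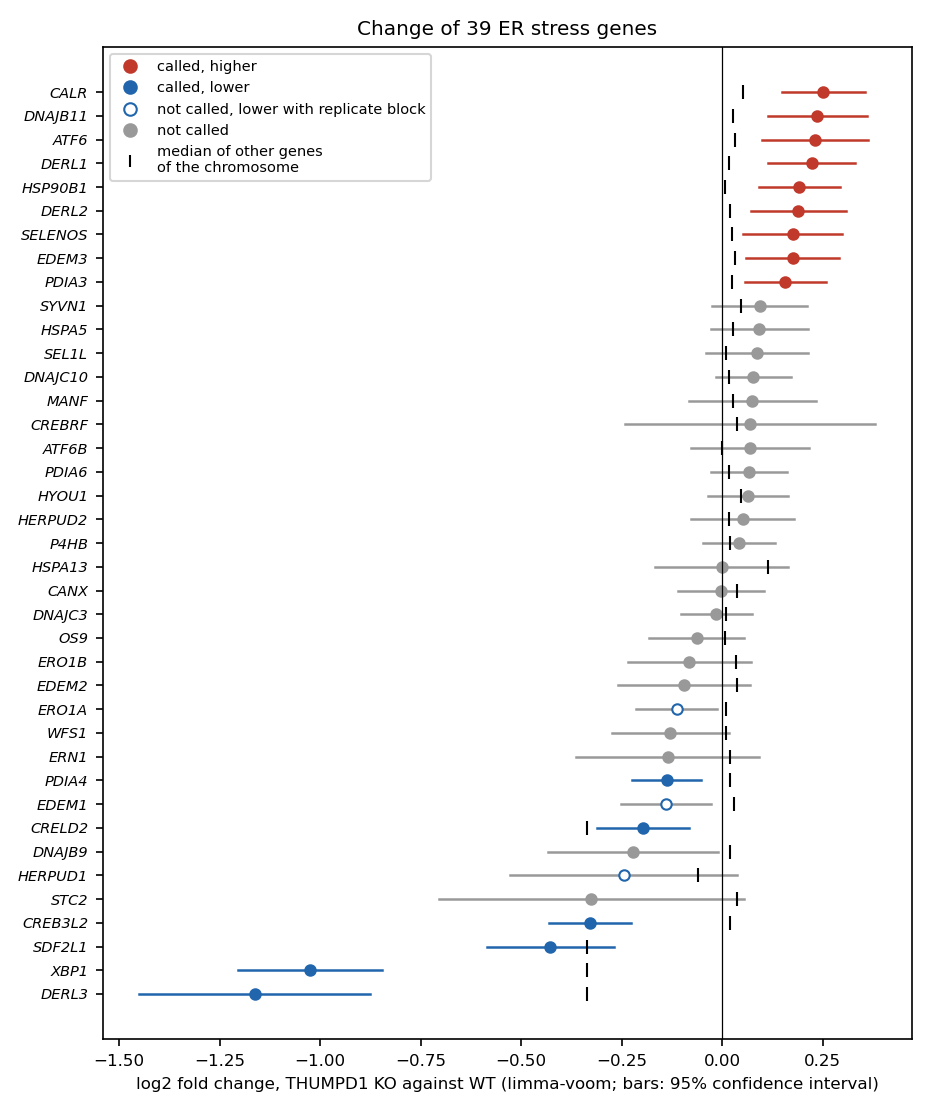
Log2 fold change of each gene between THUMPD1 KO and WT from limma-voom, with bars for the 95% confidence interval. Red marks are called higher (9 genes), filled blue called lower (6), open blue not called but called lower once the replicate block is added (3) and grey not called, and the black tick is the median of the other tested genes on the same chromosome. The tick lies at −0.34 for DERL3, XBP1, SDF2L1 and CRELD2.

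Transcription factors of the unfolded protein response read short promoter elements, and several of these lie just upstream of the genes in question. ATF6, together with the CCAAT-binding factor NF-Y, reads the ER stress response element (ERSE, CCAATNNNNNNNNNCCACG) and its compact form ERSE-II (ATTGGNCCACG). XBP1 and ATF6 also bind the unfolded protein response element (UPRE), searched here as TGACGTGG. RefSeq promoter windows of 300 bases, from 250 before to 50 after the annotated start, were searched on both strands. Of the 39 members 36 had a window, and PDIA3, DERL1 and DERL3 did not. ERSE was found in 8 of the 36 (XBP1, HSPA5, HSP90B1, CRELD2, CALR, CANX, PDIA6 and ERO1B) and in 0.0769% of all 35116 windows. ERSE-II was found in HYOU1, SDF2L1 and HERPUD1 and in 0.0541% of all windows. UPRE was found in HYOU1 and DNAJC10 and in 0.729% of all windows, and in HYOU1 it overlaps an ERSE-II. The C/EBP-ATF element read by ATF4 and its partners, searched as TGATGNAA, was found in CREB3L2 and HERPUD1 and in 3.62% of all windows. Counted per tested gene, the shares were 0.147% for ERSE, 0.129% for ERSE-II, 1.22% for UPRE and 2.62% for C/EBP-ATF. Of 94 other ER genes with a window, described further below, 1 held ERSE and 0 held ERSE-II. UPRE was in 8.51% of them and C/EBP-ATF in 4.26%, against 5.56% of members for each.

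The stretches below come from the RefSeq windows on GRCh38.p14 and run 5′ to 3′ along the coding strand of each gene, with the motif letters in capitals. A motif on the opposite strand reads as its reverse complement. The first 3 belong to genes on chromosome 22 that were lower in THUMPD1 KO, the fourth to a gene that was higher and the last 3 to genes that were not called.
XBP1, ERSE, chr22:28800583-28800641, minus strand: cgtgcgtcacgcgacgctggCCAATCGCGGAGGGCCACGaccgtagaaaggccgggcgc
SDF2L1, ERSE-II, chr22:21642094-21642144, plus strand: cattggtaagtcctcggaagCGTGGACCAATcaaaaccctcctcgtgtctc
CRELD2, ERSE, chr22:49918534-49918592, plus strand: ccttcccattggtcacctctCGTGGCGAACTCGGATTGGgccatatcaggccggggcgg
CALR, ERSE, chr19:12938364-12938422, plus strand: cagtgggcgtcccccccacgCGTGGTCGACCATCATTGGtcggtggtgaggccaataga
HSPA5, ERSE, chr9:125241371-125241429, minus strand: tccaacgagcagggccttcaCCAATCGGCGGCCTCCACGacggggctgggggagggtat
HYOU1, UPRE and 2 copies of ERSE-II, chr11:119057254-119057413, minus strand: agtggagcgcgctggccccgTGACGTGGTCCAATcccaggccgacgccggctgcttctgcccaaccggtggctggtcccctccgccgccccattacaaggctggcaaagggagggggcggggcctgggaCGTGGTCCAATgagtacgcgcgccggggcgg
HERPUD1, ERSE-II, chr16:56932005-56932055, plus strand: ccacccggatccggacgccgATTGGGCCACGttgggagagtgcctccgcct

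Genes with these elements did not move as one. Of members with a promoter window, ERSE was present in 2 of 7 that were called higher, 2 of 5 called lower and 4 of 24 not called. The median log2 fold change was 0.03 for the 8 members with ERSE and 0.02 for those without. XBP1 and HSPA5 both carry an ERSE close to the start, centred at −43 and −57 bases, and their log2 fold changes were −1.03 and 0.09. The 3 members with ERSE-II had log2 fold changes of 0.06 (HYOU1), −0.25 (HERPUD1) and −0.43 (SDF2L1). The members with ERSE or ERSE-II that were called lower, XBP1, CRELD2 and SDF2L1, all lie on chromosome 22. Most tested genes there were lower, with a median of −0.34. Members with ERSE on other chromosomes ran from −0.08 (ERO1B) to 0.25 (CALR). The spread therefore cannot be told apart from the difference between chromosomes.

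Among the 6 stress sensors and transcription factors, 1 was called higher, 2 were called lower and 3 were not called (50% called, against 26.7% of all genes tested). XBP1 (ENSG00000100219.16, chr22:28794555-28800597, minus strand), the transcription factor whose mRNA IRE1 splices, was at 147, 117 and 119.8 CPM in WT replicates 1, 2 and 3. In THUMPD1 KO it was at 66.8, 61.9 and 59.5 CPM, so every THUMPD1 KO library lay below every WT library. Its log2 fold change was −1.03 (SE 0.081, 95% confidence interval −1.20 to −0.85, adjusted p = 1.586e-05), and the 3 replicate pairs gave −1.16, −0.91 and −1.02. Counts per gene pool all transcripts, so spliced and unspliced XBP1 cannot be told apart here. The XBP1 pseudogene XBP1P1 held 0.514% of the summed counts of XBP1 and XBP1P1.

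CREB3L2 encodes an ER-anchored transcription factor that is processed in the same way as ATF6. It had 151, 143 and 151 CPM in WT and 121, 114 and 125 CPM in THUMPD1 KO, and the genotypes did not overlap. It fell by 0.33 on the log2 scale (log2 fold change −0.33, SE 0.046, adjusted p = 5.555e-04), while the median of the other tested genes of chromosome 7 was 0.02.

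ATF6 itself was at 95.7, 83.6 and 82.4 CPM in WT and at 103, 108 and 97.5 CPM in THUMPD1 KO. The log2 fold change was 0.23 (SE 0.059, adjusted p = 0.0154), and the lowest THUMPD1 KO library lay just above WT replicate 1. The ATF6 call was lost when WT replicate 2, WT replicate 3 or THUMPD1 KO replicate 2 was left out. Its relative ATF6B was not called (log2 fold change 0.07, 95% confidence interval −0.08 to 0.21). ERN1 was at 24.5, 18.7 and 20.5 CPM in WT and at 17.7, 18.6 and 21.8 CPM in THUMPD1 KO, with overlapping genotypes and a log2 fold change of −0.14 (95% confidence interval −0.36 to 0.09). CREBRF, a regulator of CREB3-type factors, was not called either (log2 fold change 0.07), and its value rested on single libraries. Its log2 fold change was −0.02 or −0.03 when WT replicate 2 or 3 was left out. Leaving out WT replicate 1 gave 0.27, and it was then called higher (adjusted p = 0.0491).

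Of the 11 chaperones and co-chaperones around BiP and HSP90B1, 2 were called higher, 2 were called lower and 7 were not called. The called share was 36.4%, against 26.7% of all genes tested. HSPA5 was at 349, 394 and 380.0 CPM in WT and at 390.3, 435 and 411 CPM in THUMPD1 KO. WT replicate 2 lay above THUMPD1 KO replicate 1, so the genotypes overlapped. Its log2 fold change was 0.09 (SE 0.055, 95% confidence interval −0.03 to 0.21, adjusted p = 0.238), and it stayed uncalled in all 17 alternatives.

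HSP90B1, the ER member of the HSP90 family also known as GRP94, was at 527, 538 and 512 CPM in WT and at 598, 629 and 563 CPM in THUMPD1 KO. All THUMPD1 KO values lay above all WT values, and the log2 fold change was 0.19 (SE 0.046, adjusted p = 0.011). The HSP90B1 call was lost with edgeR and without WT replicate 3. DNAJB11, a J-domain co-chaperone of BiP, had 44.2, 48.0 and 45.3 CPM in WT and 52.8, 56.3 and 52.8 CPM in THUMPD1 KO. The change was 0.24 on the log2 scale (SE 0.056, adjusted p = 0.0102), the 3 pairs gave 0.25, 0.23 and 0.22, and the call was lost without THUMPD1 KO replicate 2.

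SDF2L1 (chr22:21642302-21644299, plus strand), a partner of DNAJB11 in the BiP cycle, went the other way. It was at 23.1, 24.7 and 24.4 CPM in WT and at 19.0, 18.0 and 16.2 CPM in THUMPD1 KO, with no overlap. The log2 fold change was −0.43 (SE 0.072, adjusted p = 0.00161), and it was −0.28 once the trend along GC content and length was taken out (adjusted p = 0.0179). CRELD2, an ER-resident protein induced by ER stress that has been linked to disulfide exchange, was at 31.6, 32.02 and 32.1 CPM in WT and at 27.8, 27.4 and 27.8 CPM in THUMPD1 KO, a log2 fold change of −0.20 (SE 0.052, adjusted p = 0.0166), and the call ended when the trend along GC content and length was removed or when WT replicate 2 or 3 was left out.

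The remaining chaperone genes were not called. DNAJB9, a strongly XBP1-dependent co-chaperone of BiP, was at 14.5, 11.0 and 12.0 CPM in WT and at 11.7, 10.4 and 9.93 CPM in THUMPD1 KO, with overlap between genotypes and a log2 fold change of −0.22 (95% confidence interval −0.43 to −0.01, adjusted p = 0.110). DNAJC3 (also known as p58IPK) differed by −0.01 on the log2 scale, with an interval of −0.10 to 0.07. HYOU1, an HSP70-like nucleotide exchange factor, was at 0.06 (interval −0.04 to 0.16), and MANF, a BiP-binding protein that is also secreted, at 0.07 (interval −0.08 to 0.23). DNAJC10, a J-domain protein with reductase activity, was at 0.08, with all THUMPD1 KO libraries above WT. HSPA13 was at −0.00 (interval −0.17 to 0.16).

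The lectin chaperones hold glycoproteins in the calnexin cycle while disulfide isomerases form and reshuffle their bonds. Of these 8 genes, 2 were called higher, 1 lower and 5 were not called (37.5% called, against 26.7% of all genes tested). CALR (ENSG00000179218.13, chr19:12938578-12944489, plus strand) encodes calreticulin, the soluble lectin. It was at 412, 436 and 419.6 CPM in WT and at 481, 529.8 and 515 CPM in THUMPD1 KO. All THUMPD1 KO values lay above all WT values, and the log2 fold change was 0.25 (SE 0.047, 95% confidence interval 0.15 to 0.35, adjusted p = 0.00291). CANX, which encodes the membrane-bound lectin calnexin, ran between 1284 and 1332 CPM in WT and between 1206 and 1317 CPM in THUMPD1 KO, with a log2 fold change of −0.00 (interval −0.11 to 0.10).

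PDIA3, the disulfide isomerase that works on glycoproteins held by calnexin and calreticulin, was at 224, 216 and 214 CPM in WT and at 233, 260.0 and 242 CPM in THUMPD1 KO. The log2 fold change was 0.16 (SE 0.046, adjusted p = 0.0277), and this call was lost in 7 of 17 alternatives, TMM and edgeR among them. PDIA3 pseudogenes held 0.905% of the summed counts of PDIA3 and these pseudogenes. PDIA4 had 249, 256 and 252 CPM in WT and 225, 234 and 233 CPM in THUMPD1 KO. These did not overlap, and the log2 fold change was −0.14 (SE 0.039, adjusted p = 0.0226). Leaving out WT replicate 2, WT replicate 3 or THUMPD1 KO replicate 3 ended the PDIA4 call.

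PDIA6 and P4HB, which encode further disulfide isomerases, had log2 fold changes of 0.07 (interval −0.03 to 0.16) and 0.04 (interval −0.05 to 0.13). ERO1A, the oxidase that recharges disulfide isomerases, was at 155, 146 and 141 CPM in WT and at 137, 144 and 136 CPM in THUMPD1 KO. THUMPD1 KO replicate 2 lay above WT replicate 3, and the log2 fold change of −0.11 had an adjusted p of 0.0893, or 0.0473 with the replicate block. ERO1B, the second ER oxidase, was at −0.08 (interval −0.23 to 0.07).

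The 12 ERAD genes held 4 called higher, 1 called lower and 7 not called (41.7% called, against 26.7% of all genes tested). DERL1, DERL2 and DERL3 encode derlins, membrane proteins of the channel through which misfolded proteins leave the ER, and they did not move together. DERL3 (ENSG00000099958.14, chr22:23834503-23839128, minus strand) was at 12.4, 9.34 and 10.1 CPM in WT and at 5.97, 4.08 and 4.62 CPM in THUMPD1 KO. It fell with a log2 fold change of −1.16 (SE 0.130, 95% confidence interval −1.45 to −0.88, adjusted p = 1.453e-04), and pairs 1, 2 and 3 gave −1.07, −1.22 and −1.17. DERL1 was at 58.3, 57.9 and 56.3 CPM in WT and at 66.3, 70.3 and 64.3 CPM in THUMPD1 KO, a log2 fold change of 0.22 (SE 0.049, adjusted p = 0.0073). DERL2 was at 41.0, 41.7 and 38.8 CPM in WT and at 46.7, 48.3 and 43.97 CPM in THUMPD1 KO, a log2 fold change of 0.19 (SE 0.054, adjusted p = 0.0245). The DERL2 call was lost in 4 of 17 alternatives: no CPM filter, the GC content and length trend removed, and either WT replicate 3 or THUMPD1 KO replicate 2 left out. For all 3 derlins the genotypes did not overlap, which held for 42.2% of all genes tested. The study's methods name a stranded library kit, but no source used here gives the strand setting with which reads were counted. DERL3 overlaps SMARCB1 on the other strand, DERL1 overlaps TBC1D31 and DERL2 overlaps MIS12, so reads from these partners cannot be set apart. Among the other called members the same holds for HSP90B1 with UQCC6, DNAJB11 with TBCCD1, CRELD2 with ALG12 and PDIA3 with ELL3. ATF6 overlaps the gene ENSG00000229808 on its own strand, where a strand setting would not separate reads. Members not called without the block also had such overlaps: HERPUD1 with ENSG00000261114, SYVN1 with FAU and ATF6B with TNXB.

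EDEM3 and SELENOS were the other ERAD genes called higher. EDEM3, which trims mannose from glycoproteins to mark them for disposal, was at 68.7, 66.6 and 65.4 CPM in WT and at 72.0, 80.7 and 73.4 CPM in THUMPD1 KO. The log2 fold change was 0.17 (SE 0.053, adjusted p = 0.0316). SELENOS, a selenoprotein that ties p97/VCP to the derlins, was at 40.4, 44.6 and 40.7 CPM in WT and at 46.6, 48.1 and 47.7 CPM in THUMPD1 KO, again a log2 fold change of 0.17 (SE 0.056, adjusted p = 0.0389). Both calls were lost with TMM, with edgeR and with DESeq2, and over the 17 alternatives EDEM3 lost its call in 9 and SELENOS in 8.

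EDEM1, a close relative of EDEM3 and an XBP1 target, was at 91.4, 80.6 and 82.8 CPM in WT and at 79.5, 76.5 and 77.2 CPM in THUMPD1 KO. All THUMPD1 KO values lay below all WT values, and the log2 fold change was −0.14 (SE 0.051), with an adjusted p of 0.0654, or 0.0256 with the replicate block. HERPUD1, a scaffold of the ERAD ubiquitin ligase and a target of ATF6 and ATF4, was at 67.2, 43.4 and 46.3 CPM in WT and at 46.2, 42.5 and 41.8 CPM in THUMPD1 KO. WT replicate 1 stood apart from the other 5 libraries, and the log2 fold change was −0.25 (95% confidence interval −0.53 to 0.04) with an adjusted p of 0.182, or 0.0368 with the block. Without WT replicate 1 it was −0.05, and without WT replicate 2 it was −0.37 and called lower (adjusted p = 0.0434). EDEM2, OS9, SEL1L, SYVN1 and HERPUD2, with roles in mannose trimming, glycan recognition and the HRD1 ligase complex, lay between −0.10 and 0.09 and were not called.

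WFS1, a membrane protein of ER calcium balance, and STC2, a secreted glycoprotein induced by ER stress, were not called. WFS1 was at 31.9, 33.1 and 33.6 CPM in WT and at 27.9, 30.9 and 31.3 CPM in THUMPD1 KO, without overlap, and the log2 fold change of −0.13 had an adjusted p of 0.173. STC2 was at 179, 95.4 and 110.3 CPM in WT and at 101, 96.3 and 101 CPM in THUMPD1 KO. The log2 fold change was −0.33 with all libraries and −0.06 without WT replicate 1. Without WT replicate 2 it was −0.51, and STC2 was then called lower (adjusted p = 0.0238).

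WT replicate 1 lay more than 0.2 on the log2 scale above the mean of the other WT libraries for 10 of the 39 members (25.6%), against 12.3% of all genes tested. The largest such gaps were 0.80 for STC2, 0.57 for CREBRF and 0.56 for HERPUD1, and XBP1 stood 0.31 higher. THUMPD1 KO replicate 1 was above its group by this much for 1 member, DERL3 with a gap of 0.37. Leaving out WT replicate 1 left 15 members called, and XBP1 was at −0.93 and DERL3 at −1.08 without it. What sets WT replicate 1 apart was not tested.

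For the 24 members that were not called, the 95% confidence intervals reached no lower than −0.71 and no higher than 0.38. The interval lay within 0.2 of 0 on the log2 scale for 9 of them and within 0.3 for 19. The calls themselves varied with single libraries. Without WT replicate 3 the number of members called was 7, and without THUMPD1 KO replicate 2 it was 9. A fit with fewer libraries has less power for every gene, and the shares over all genes in these fits are not given here. These counts therefore do not show whether the members vary more than other genes. XBP1, CREB3L2, SDF2L1, CALR, DERL1 and DERL3 were called in all 17 alternatives, and no called member changed sign in any of them.

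The 4 members on chromosome 22 (XBP1, SDF2L1, DERL3 and CRELD2) were all called lower, and so was most of the chromosome. Of 375 tested genes there, 94.1% had a negative log2 fold change, 67.5% were called lower, and the median was −0.34. The other members named above sit on chromosomes whose medians lay between −0.06 and 0.11. Within chromosome 22, DERL3 was at the 1.60th percentile and XBP1 at the 2.67th percentile of log2 fold changes of the other genes, so both fell further than most other genes of the chromosome. SDF2L1 was at the 30.7th percentile and CRELD2 at the 77.3rd, and CRELD2 at −0.20 fell less than the chromosome median. Medians over the 20 nearest tested genes were −0.39 around XBP1, −0.44 around DERL3 and −0.34 around both SDF2L1 and CRELD2. The drop in SDF2L1 and CRELD2 therefore cannot be told apart from that of the chromosome. For XBP1 and DERL3 the same holds for at least part of the drop. The number of copies of chromosome 22 in either line was not tested.

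The other 35 members held 9 called higher and 2 called lower (CREB3L2 and PDIA4), with a median log2 fold change of 0.06. Among the 14713 tested genes outside chromosome 22, the median was 0.02 and 25.6% were called. The called share of these 35 members was 31.4%.

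**Figure D3:**
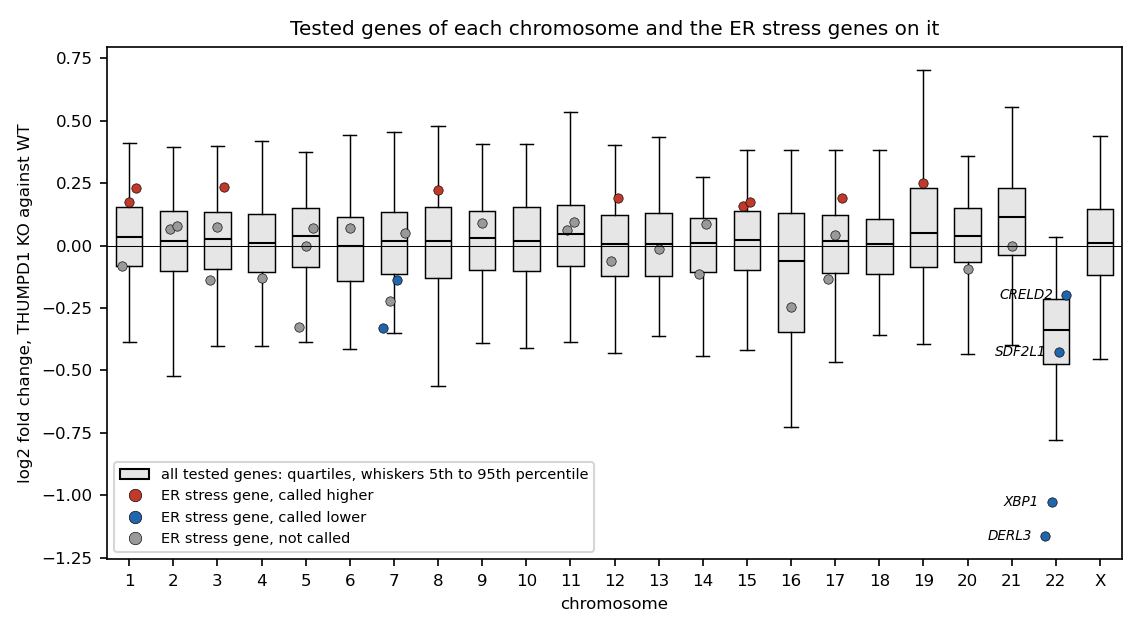
Log2 fold change of all tested genes on each chromosome (boxes for quartiles, line for the median, whiskers from the 5th to the 95th percentile), with the 39 members as points coloured by call. The box of chromosome 22 lies below 0 with a median of −0.34, SDF2L1 lies within the box, CRELD2 just above it, and XBP1 and DERL3 below its whisker.

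Levels were compared between genes as transcripts-per-million values (TPM), computed from the expected counts and the summed exon length of each gene. That length pools the exons of all annotated transcripts, 2802 bases for CALR and 13764 for CANX, so the TPM order depends on annotation. By mean CPM in WT, CANX (1307) lay above CALR (422), and HSP90B1 (526) above XBP1 (128). In WT the TPM order ran from CALR (313 TPM), CANX (197), PDIA4 (159), PDIA6 (135) and HSPA5 (119) to DERL3 (5.84), ERO1B (4.01), CREBRF (2.67) and ERN1 (2.31). XBP1 came sixth at 88.0 TPM and was at 44.8 TPM in THUMPD1 KO. On this measure the called members covered the range from the highest TPM of these genes to one of the lowest.

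Other genes of the same compartment were set beside the 39. Of 114 further ER genes, all tested, 28 were called (24.6%), 17 higher and 11 lower, against 26.7% of all genes, and their median log2 fold change was 0.03. With the replicate block 47 of the 114 were called, against 35.1% of all genes. The 4 of these genes on chromosome 22, ATF4, RTCB, UFD1 and RNF185, were all called lower, as were 67.5% of all tested genes there.

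In the list of other unfolded protein response and PERK branch genes, 6 of 20 were called (30%, against 26.7% of all genes tested). RTCB, the ligase that joins the XBP1 exons after IRE1 cleavage, was at 103.6 ± 1.97 CPM in WT and 84.9 ± 3.67 CPM in THUMPD1 KO (SD, n = 3 each), a log2 fold change of −0.30 (adjusted p = 0.00109). ATF4, the transcription factor translated when eIF2α is phosphorylated, had a log2 fold change of −0.37 (adjusted p = 0.00604), close to its chromosome's median of −0.34. MBTPS2, the protease that makes the second cut in ATF6, rose with a log2 fold change of 0.27 (adjusted p = 0.00529), and TMBIM6, an ER membrane protein that dampens IRE1, rose by 0.21 on the same scale (adjusted p = 0.00205). NFE2L2, a substrate of PERK, and CREB3L4, another ER-anchored factor, were called lower at −0.24 and −0.42. The CREB3L4 call was lost with edgeR (adjusted p = 0.0809), and its genotypes overlapped. EIF2AK3 was at −0.02 and was not called. Of 4 targets downstream of ATF4 in this list, named here after their values were seen, none was called without the block, by limma-voom or by edgeR. DDIT3 was at −0.37, CHAC1 at −1.14 and TRIB3 at −0.22, while PPP1R15A was at 0.20. With the replicate block their adjusted p were 0.0366, 8.513e-04, 0.0277 and 0.0301 in that order, so with it 3 were called lower and 1 higher. CHAC1 was at 11.1 ± 9.85 CPM in WT, an SD nearly as large as the mean.

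The other lists gave counts near or below the share for all genes, apart from ERAD. In the translocon and signal peptidase list 3 of 24 were called (12.5%), led by SEC61A2 at 0.41, with SSR3 and SSR4, subunits of the translocon-associated complex, both at −0.14. The SSR3 call was lost with edgeR (adjusted p = 0.0563). In the N-glycosylation and calnexin cycle list 3 of 20 were called (15%), and all were subunits of the oligosaccharyltransferase that rose: DAD1 at 0.23, RPN1 at 0.16 and RPN2 at 0.13. With edgeR the calls of RPN1 and RPN2 were lost (adjusted p = 0.0698 and 0.163). OSTC, a further subunit, was at −0.18 and was not called (adjusted p = 0.0658), but was called lower with edgeR (0.0343) and with the replicate block (0.0338). Among other disulfide and folding enzymes 7 of 26 were called (26.9%), with FKBP10 at −0.59, TXNDC11 at −0.37 and ERP44 at 0.38 having the smallest adjusted p. Among other ERAD genes 9 of 24 were called (37.5%), with TRIM13 at 0.56, UBE2G2 at 0.33 and TMUB1 at −0.30 having the smallest.

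**Figure D4:**
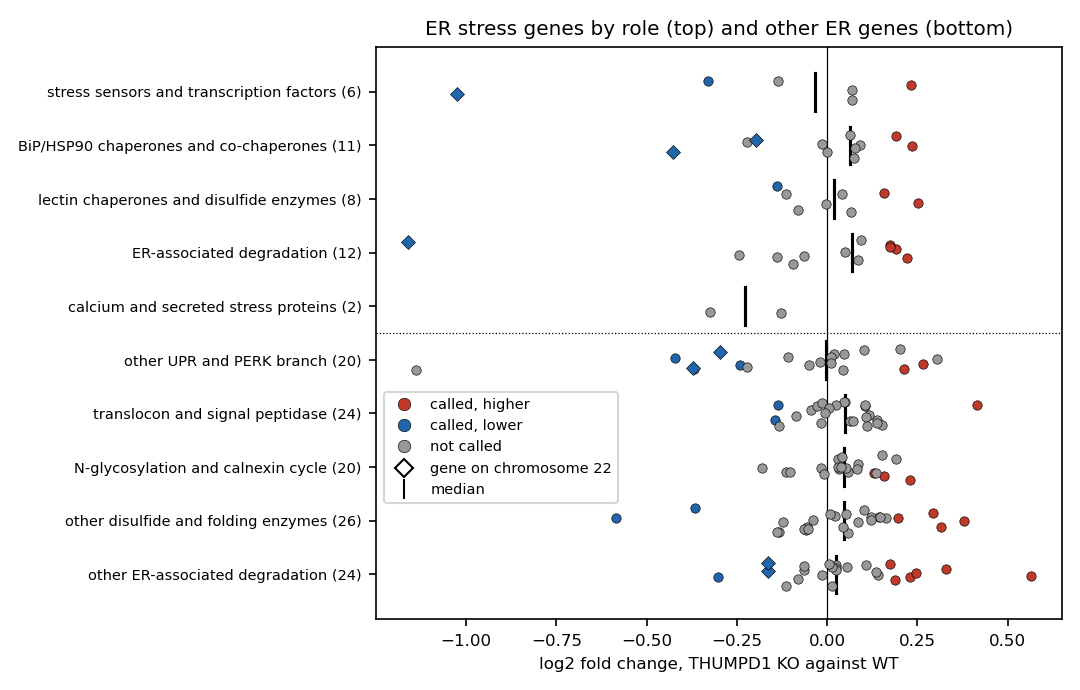
Log2 fold change of each of the 39 genes by role (above the dotted line) and of 114 other ER genes by list (below it), with the number of genes in parentheses and a bar at each median. Points are coloured by call and genes on chromosome 22 are diamonds. The medians lie between −0.23 and 0.07, and the lowest called members are DERL3 at −1.16 and XBP1 at −1.03.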

How the data were processed

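RNA-seq libraries of 3 WT and 3 THUMPD1 KO HEK-293T replicates were compared. Per the study's methods and processing notes, the authors used STAR for alignment to GRCh38 and RSEM to estimate expected counts per gene, and the deposited table holds these expected counts without scaling between libraries. Expected counts need not be whole, and the strand setting used in counting is not given in the sources used here. Groups and replicate numbers came from the sample labels.

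Following the study's methods, genes under 1 CPM were removed (kept: at least 1 CPM in at least 3 of 6 libraries, a number the study does not state), counts were quantile normalized, and limma-voom (limma 3.58.1, R 4.3.3) was fitted with no term but genotype. The tests were two-sided, with Benjamini-Hochberg adjustment over 15088 genes and a threshold of 0.05. Alternatives were TMM library sizes, library sizes alone, 3 other CPM filters, a replicate block, sample quality weights, removal of GC content and length trends with and without the block, edgeR 4.0.16 (quasi-likelihood) and DESeq2 1.42.0 on rounded counts, each library left out in turn, and an adjusted p under 0.01 for counts of genes. Scripts were tested on simulated data. CPM was computed from the deposited counts and library totals of 32225646 to 44099898.

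Deviations from the genotype means across 15088 genes correlated at 0.171, 0.147 and 0.138 between libraries with the same number, and at −0.140 to 0.0194 between libraries with different numbers. For this reason libraries were treated as paired by number in the block fit, although the labels do not explain them.

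Positions and exon lengths came from GENCODE 44 on GRCh38 (99.3% of gene IDs matched), whereas the methods name release 46. Promoter sequences are from RefSeq (GRCh38.p14). All 39 members were named by role, and full values were given for members called in the fit without or with the block, and for HSPA5, ERN1 and others described. Of the other ER genes, the 3 with the smallest adjusted p per list were named, with further genes named after their values were seen. Members, lists and tests were chosen with earlier results of these data known. Some of the kidney markers examined are not reported here.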

Additional observations from a re-analysis of the deposited data

How the results depend on the processing

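Over the 39 members and 17 alternatives, 663 log2 fold changes were recomputed. Of these, 590 kept direction and side of the threshold, 40 lost a call, 20 gained one and 13 changed sign, none of the last in a called gene. The number of members called, 15, was 6 at an adjusted p under 0.01 and 7 to 15 with 1 library left out, and 18 with the replicate block (22 with the GC content and length trend also removed). For the 114 other ER genes, 28 called became 47 with the replicate block, 43 with the block and the GC and length trend removed, 14 at an adjusted p under 0.01 and 17 to 31 with 1 library left out. Shares over all genes are given here only for an adjusted p under 0.05 in the quantile-normalized fits without and with the block. Whether the other changes in counts differ from those of all genes was not tested. The block changed the call of no other member than ERO1A, HERPUD1 and EDEM1. Of other uncalled members, DNAJB9, P4HB, ERO1B and SYVN1 were called with the block and the GC and length trend removed. Sign changes were in values near 0 in the fit with all libraries. HSPA13, at −0.00, was at 0.00715 with library sizes alone, at 0.047 with sample quality weights and between −0.065 and 0.096 with 1 library left out. CANX, at −0.00, was at −0.098 with TMM, at −0.096 with edgeR, at −0.095 with DESeq2, at −0.072 with library sizes alone, at 0.0012 without a CPM filter, at 0.018 with sample quality weights and between −0.051 and 0.022 with 1 library left out. With 1 library left out, MANF lay between −0.019 and 0.121 and CREBRF between −0.029 and 0.268. The causes were not tested. The members' median log2 fold change lay between −0.01 and 0.05. Each member had at least 149 counts in every library, and precision is limited by 3 libraries a group from 1 clone and its parental line.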
